A study of Mus musculus with 8 samples.

Results

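In Visium sections of mouse large intestine, the spots richest in Atp12a, Tgm3, Fxyd4 and S100g RNA are described here. Visium collects RNA on a slide printed with barcoded capture spots, each a small area of tissue that can hold several cells of different types. Within each of the 2 sections, labelled WTLI1 and WTLI2 and called section 1 and section 2 below, spots with at least 500 unique molecular identifiers (UMIs, counts of distinct captured RNA molecules) were ordered by the summed UMIs of the 4 genes over all UMIs of the spot. The top 10% were taken and are called Atp12a-Tgm3 spots. They numbered 209 of 2094 spots in section 1 and 218 of 2179 in section 2, 427 in all. In section 1 the lowest such spot held 3865 UMIs of the 4 genes per 1000000 UMIs (CPM) and the next spot below it 3861 CPM. The corresponding values in section 2 were 3995 and 3986 CPM, so the line between the groups ran through a continuous range. The levels of the 4 genes chose the spots and are given as a description only.

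The series concerns lymphatic vessels and intestinal stem cells, and holds single-cell libraries of organoids and sorted tissue beside Visium cryosections of small and large intestine. Both large intestine sections came from the C57BL/6 strain with no treatment named. The labels gave no age, sex or genotype beyond the letters WT in the section names, nor the position along the large intestine. Sections of a tissue were technical duplicates, so they stand for 1 biological sample. No test was therefore made between groups of spots, and spots of a section were not treated as replicates. Intervals in brackets are 95% intervals for counting error only and leave out differences between animals. Section 1 held 41256923 UMIs and section 2 held 43832840 UMIs in the spots kept. A median Atp12a-Tgm3 spot held 19353 and 21782 UMIs, beside 19287 and 19443 UMIs in the other spots. Comparison groups defined below were deeper. Their medians were 28185 and 28019.5 UMIs in the Hao2 spots, and 23066.5 and 23858 UMIs in the epithelium-rich other spots.

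Atp12a encodes the colonic type of H+/K+-ATPase, a pump that secretes acid and takes up potassium at the surface of the distal colon. Fxyd4 encodes a small partner protein of the Na+/K+-ATPase that is induced by corticosteroids, Tgm3 a transglutaminase that crosslinks proteins, and S100g the vitamin D-dependent calcium carrier calbindin. Along the colon, salt is absorbed proximally by coupled exchangers, while the distal colon adds sodium channels that are driven by aldosterone. Hox genes of the 5′ ends of their clusters are expressed toward the tail end of the body and are used as markers of position along the gut. Hao2 encodes a hydroxyacid oxidase and Cyp2c68 and Cyp2f2 encode cytochrome P450 enzymes; the top 10% of spots by these 3 genes form the comparison group, called Hao2 spots.

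Both sets of spots were nearly separate. Only 2 of the 209 Atp12a-Tgm3 spots of section 1 were also Hao2 spots (0.957%), and 2 of 218 in section 2 (0.917%). A set held 9.98% and 10.0% of all spots. The overlap uses the scores that chose the sets and is a description only. Over all spots the scores had a Spearman correlation of 0.05 and 0.04, as a description of 2094 and 2179 spots that share their libraries. When each set was widened to the top 20% of spots, 11.1% of the Atp12a-Tgm3 spots were also Hao2 spots, beside 20% of all spots. Spots in both sets were left out of both where the sets are compared below.

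**Figure D1:**
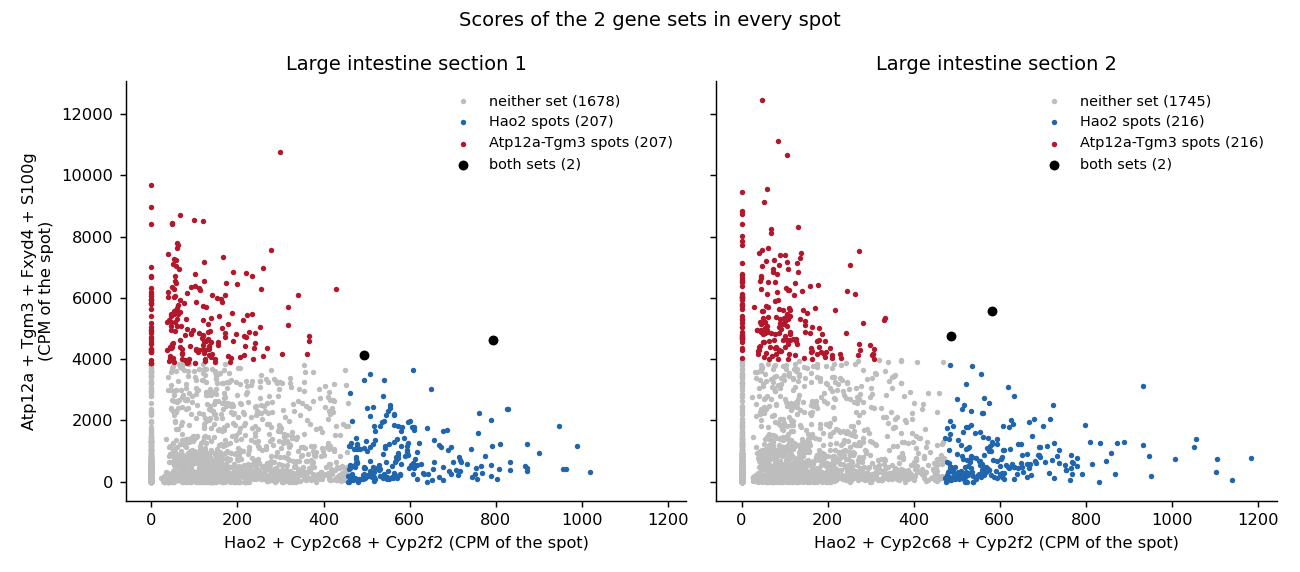
Each point is a spot of section 1 (left) or section 2 (right); the x axis is the summed CPM of Hao2, Cyp2c68 and Cyp2f2 and the y axis the summed CPM of Atp12a, Tgm3, Fxyd4 and S100g. Red points are the Atp12a-Tgm3 spots, blue points the Hao2 spots, black points the 2 spots of each section in both sets, and grey points all others; few spots lie high on both axes.

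The share of each of the 4 genes varied among the members. Atp12a ranged from 645 to 3868 CPM over the member spots of section 1, with a median of 1709 CPM, and from 541 to 4357 CPM with a median of 1657 CPM in section 2. S100g ranged from 0 to 8079 CPM in section 1 and from 125 to 8000 CPM in section 2. Within the member spots the Spearman correlations between pairs of the 4 genes lay between -0.19 and 0.17, while over all spots of a section they lay between 0.55 and 0.79. A sum that passes a cutoff limits the values its parts can take together, and that part of the low correlations was not separated.

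The level of each gene was also taken in spots chosen by the other 3. In the top 10% of spots by the other 3 genes, Atp12a stood at 1567 CPM in section 1 and 1538 CPM in section 2, against 302 and 279 CPM in the spots below, a log2 ratio of 2.37 (2.33 to 2.42) and 2.47 (2.42 to 2.51). S100g was 2.80 and 3.09 log2 units higher in spots chosen without it, Fxyd4 2.42 and 2.33, and Tgm3 1.72 and 1.80. These values are a description, since the 4 genes were grouped from earlier results of these data and the spots chosen by 3 of them were largely the same spots. The choice without S100g shared the fewest spots with the full set, 78.0% and 79.8%. The choice without Fxyd4 shared the most, 98.1% and 98.6%.

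In the 2 small intestine sections of the series Atp12a held 14 and 19 UMIs in all (0.575 and 0.631 CPM), beside 428 and 416 CPM over the whole large intestine sections. Tgm3 stood at 0.780 and 0.698 CPM there, and Fxyd4 had 1 UMI and 0 UMIs, the latter allowing a level of up to 0.0997 CPM (3 counts). S100g differed from the other 3 genes: it was at 194 and 195 CPM in the small intestine, beside 332 and 364 CPM in the large intestine.

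Member spots were epithelial, with a high summed level of markers of surface colonocytes, the absorptive cells at the mouth of the crypt. The summed pan-epithelial list (Epcam, keratins and claudins, 8 genes) stood at 15850 and 16161 CPM in them, at 12554 and 12920 CPM in the other spots and at 15909 and 16542 CPM in the Hao2 spots. A list of 12 surface colonocyte genes stood at 17450 and 17592 CPM, against 10693 and 11038 CPM in the epithelium-rich other spots defined below and 4179 and 4636 CPM in the Hao2 spots. Not every surface gene took part: Guca2a, which encodes guanylin, was lower in the member spots, at 223 and 239 CPM against 829 and 870 CPM in the other spots. Cycling genes summed to 60.6 and 65.9 CPM in the member spots, 364 and 367 CPM in the other spots and 202 and 181 CPM in the Hao2 spots. Crypt and stem genes such as Lgr5 and Smoc2 summed to 55.0 and 55.5 CPM, against 185 and 182 CPM in the other spots.

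Muscle and plasma cell genes summed to less in the member spots than in the other spots. Smooth muscle genes summed to 489 and 512 CPM in them and to 2887 and 2847 CPM in the other spots, while the Hao2 spots stood close to them at 450 and 441 CPM. Plasma cell genes, mainly immunoglobulins, summed to 20365 and 19734 CPM, against 35604 and 33504 CPM in the other spots and 39982 and 36108 CPM in the Hao2 spots. Blood endothelial genes summed to 95.4 and 108 CPM in the member spots, 92.1 and 90.8 CPM in the other spots and 41.6 and 36.5 CPM in the Hao2 spots. Their log2 ratio to the other spots was 0.15, and -0.13 with the mean of each spot's CPM. In such mixed spots, fewer cells of a type and less RNA per cell cannot be told apart. Since the other spots hold muscle and submucosa, a second comparison group was formed from spots outside the set whose pan-epithelial share was at or above the members' lower quartile. There were 634 and 709 of these epithelium-rich other spots, of which 141 and 155 were Hao2 spots.

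Several lists followed the score over its whole range. When all spots of section 1 were cut into 10 equal groups by score, posterior Hox genes summed to 399 CPM in the lowest group and 734 CPM in the highest, and anterior and middle Hox genes to 85.4 and 20.8 CPM. Cycling genes went from 650 to 60.6 CPM, and interferon response genes from 1019 to 4257 CPM. Most of the interferon difference lay at the top: group 8 stood at 1886 CPM and group 9 at 2933 CPM. Smooth muscle and plasma cell genes did not follow this order but peaked below the top, at 5868 CPM in group 6 and 45734 CPM in group 8.

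**Figure D2:**
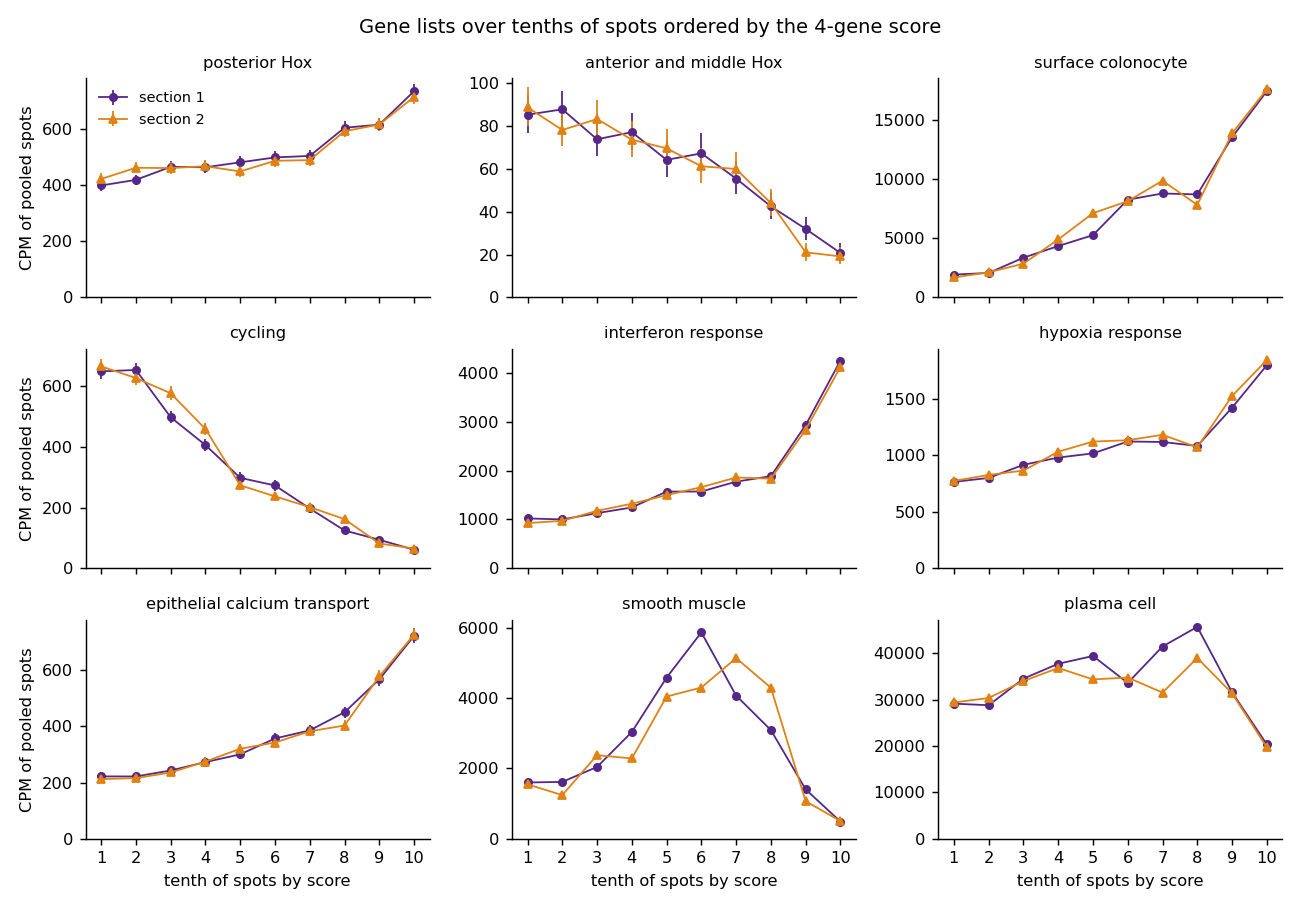
Each panel shows the summed CPM of a gene list (y axis, from 0) in 10 equal groups of spots ordered by the 4-gene score (x axis, 1 lowest, 10 highest; group 10 is the Atp12a-Tgm3 spots, less 1 spot in section 2); circles are section 1, triangles section 2, and bars are 95% Poisson intervals. Posterior Hox, surface colonocyte, calcium transport, interferon and hypoxia genes are highest in group 10, anterior and middle Hox and cycling genes are lowest there, and muscle and plasma cell genes peak in lower groups.

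Across all genes, fewer stood higher than lower in the member spots. A gene was counted as higher or lower when it was at least 2-fold apart in the same direction in both sections, and it entered the count if either group held 100 UMIs or more of it in each section. Against the other spots, 441 of 11746 genes were higher (3.75%) and 2660 lower (22.6%). Against the epithelium-rich other spots, 150 of 8880 genes were higher (1.69%) and 367 lower (4.13%). Against the Hao2 spots, 433 of 6151 genes were higher (7.04%) and 726 lower (11.8%). Since the member spots hold fewer UMIs than the other spots, some genes called higher have under 100 UMIs in them. With 100 UMIs required in the group of higher level, a limit added after seeing the data, 373, 137 and 433 genes were higher in the 3 comparisons. Ifit1bl2, Scnn1b, Hoxd10, Hoxd11, Ifit2, Cd274, Adm, Pfkfb3, Sprr2a2 and Sprr2b were the named or list genes that then left a count of higher genes. No gene passed the fold in opposite directions in the sections, and the median difference between them was 0.16, 0.14 and 0.13 log2 units. These shares depend on the scaling. The median log2 ratio of all genes was -0.54 and -0.50, -0.24 and -0.22, and -0.28 and -0.26 in the 3 comparisons. Median-of-ratios scaling, which put that shift at -0.47, -0.21 and -0.27 and removed it, gave 1053 higher and 1248 lower genes against the other spots, 248 and 154 against the epithelium-rich other spots, and 657 and 361 against the Hao2 spots. On the unshifted scale the 12 surface colonocyte genes were split, with 6 higher and 3 lower than in the other spots and 4 higher and 3 lower than in the epithelium-rich other spots.

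Position along the gut was read from Hox genes, the property that the comparison with the Hao2 spots was meant to address. Posterior Hox genes summed to 734 and 714 CPM in the member spots and to 593 and 548 CPM in the Hao2 spots, a log2 ratio of 0.31 (0.24 to 0.38) and 0.38 (0.31 to 0.45). Against the epithelium-rich other spots the ratios were 0.55 and 0.54. Median spots gave the same order, with 708 and 698 CPM in the member spots and 605 and 544 CPM in the Hao2 spots, while the ranges overlapped widely (246 to 1934 CPM in members of section 1). So the posterior Hox level was higher in the member spots, by less than 2-fold, and 0 of its 4 genes counted passed the fold against the Hao2 spots, beside 7.04% higher and 11.8% lower among all genes. Of 6 counted against the epithelium-rich other spots, 2 were higher, Hoxd10 and Hoxd11, beside 1.69% of all genes, and against the other spots 1 of 8, Hoxd10, beside 3.75%.

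Hoxb13, the most caudal gene of its cluster, made up most of that sum. It stood at 513 and 511 CPM in the member spots, at 416 and 413 CPM in the Hao2 spots and at 338 and 351 CPM in all other spots, a log2 ratio to the Hao2 spots of 0.30 (0.22 to 0.39) and 0.31 (0.22 to 0.39). Hoxd13 was 0.31 (0.11 to 0.51) and 0.74 (0.52 to 0.95) log2 units above the Hao2 spots. For Hoxa13 the ratios of 0.08 and 0.18 had intervals that included 0 (-0.21 to 0.37 and -0.11 to 0.47), and Hoxa10 was at -0.15 and -0.19. Hoxd10 stood apart in the posterior group at 21.0 and 18.2 CPM against 7.74 and 8.12 CPM in the Hao2 spots, although it had too few UMIs to be counted in that comparison.

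Anterior and middle Hox genes went the other way. Their sum was 20.8 and 19.1 CPM in the member spots, 50.2 and 52.0 CPM in the Hao2 spots and 65.4 and 64.0 CPM in the other spots, a log2 ratio to the Hao2 spots of -1.28 (-1.64 to -0.92) and -1.44 (-1.80 to -1.09). Hoxa7 was at 10.4 and 7.83 CPM in the member spots and 24.9 and 31.3 CPM in the Hao2 spots. Hoxa5 was at 5.31 and 5.29 CPM against 13.6 and 12.1 CPM. The Hoxb genes of this list were nearly silent in the member spots, with between 0 and 5 UMIs each per section. Fibroblasts and muscle also express Hox genes. The fibroblast list stood at 820 and 788 CPM in the member spots and 716 and 656 CPM in the Hao2 spots, and its part in the Hox levels was not tested.

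Sodium transport genes of the aldosterone-sensitive kind were partly higher. Scnn1a, which encodes the alpha subunit of the epithelial sodium channel, stood at 134 and 137 CPM in the member spots, 51.6 and 50.5 CPM in the Hao2 spots and 53.7 and 53.5 CPM in the other spots. Its log2 ratio to the Hao2 spots was 1.39 (1.18 to 1.59) and 1.44 (1.24 to 1.64). The beta subunit Scnn1b was at 19.8 and 18.6 CPM against 4.47 and 5.01 CPM in the Hao2 spots, and the gamma subunit Scnn1g at 7.48 and 6.35 CPM against 1.55 and 1.56 CPM, with only 31 and 30 UMIs in the member spots. All the channel's subunits thus stood higher in the member spots of both sections. Nr3c2, the mineralocorticoid receptor, was at 108 and 114 CPM against 56.4 and 53.4 CPM in the Hao2 spots, and the aldosterone-induced kinase Sgk1 at 113 CPM in both sections against 30.4 and 37.7 CPM.

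The rest of that list did not share the pattern. Hsd11b2, which protects the receptor from glucocorticoids, was lower than in the Hao2 spots, at 224 and 244 CPM against 349 and 355 CPM, and the potassium channel gene Kcnn4 was at 14.7 and 14.4 CPM against 37.3 and 33.5 CPM. Of 11 list genes counted against the Hao2 spots, 2 were higher and 1 was lower, with a median log2 ratio of 0.25 and 0.20. Of all genes in that comparison 7.04% were higher and 11.8% lower, so the lower share was near the background. Against the epithelium-rich other spots 1 of 12 was higher, namely Scnn1b with 82 UMIs in section 1, and 0 were lower, beside 1.69% and 4.13% of all genes.

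Genes of electroneutral salt and water absorption included some of the most abundant differences. Car4, a carbonic anhydrase of the surface membrane, stood at 3053 and 3102 CPM in the member spots and at 247 and 282 CPM in the Hao2 spots. The water channel gene Aqp8 was at 2652 and 2618 CPM against 237 and 255 CPM, and Slc26a3, the chloride-bicarbonate exchanger, at 1626 and 1560 CPM against 236 and 245 CPM. Clca4b, of the family of calcium-activated chloride channel regulators, was at 1913 and 1773 CPM against 121 and 123 CPM. The sodium-hydrogen exchanger Slc9a2 was higher than in the Hao2 spots (log2 1.47 and 1.46), while its relative Slc9a3 was not (0.20 and -0.30). Against the epithelium-rich other spots Slc9a3 was lower, at 40.8 and 42.6 CPM against 176 and 192 CPM. Reads of Clca4a and Clca4b may be shared, since the genes are near-identical neighbours.

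Transporters of crypt secretion and another water channel were lower. Aqp4 stood at 39.1 and 44.7 CPM in the member spots and at 462 and 478 CPM in the Hao2 spots, and Cftr, the chloride channel of secretion, at 6.76 and 5.29 CPM against 43.8 and 51.0 CPM. Aqp8 and Aqp4 thus differed in opposite directions. Kcne3, a subunit of a basolateral potassium channel, was at 32.4 and 36.2 CPM against 197 and 192 CPM. Of 15 counted genes of the list 6 were higher and 5 lower than in the Hao2 spots, beside 7.04% and 11.8% of all genes. Its sum was higher by 1.55 and 1.48 log2 units, but its median ratio was 0.20 in section 1 and -0.30 in section 2.

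Some calcium transport genes were higher in the spots that S100g helped to choose. Trpv6, the apical calcium channel, was at 152 and 167 CPM in the member spots, 39.2 and 40.8 CPM in the Hao2 spots and 40.1 and 41.9 CPM in the other spots. In spots with at least 10000 UMIs, thinned to that number, Trpv6 was found in 71.6% and 74.6% of the member spots and in 28.0% and 31.8% of the Hao2 spots. The shallower spots left out were few, with 204 of 209 and 213 of 218 member spots and 200 of 209 and 201 of 218 Hao2 spots kept. Without thinning, Trpv6 was found in 86.1% and 92.7% of all member spots and 58.4% and 56.4% of the Hao2 spots. The calcium pump gene Atp2b1 was 1.42 and 1.33 log2 units above the Hao2 spots. Vdr, the vitamin D receptor, was at 295 and 305 CPM against 166 and 161 CPM, a difference under 2-fold. The sodium-calcium exchanger gene Slc8a1 was lower, at 5.79 and 5.08 CPM against 22.4 and 21.0 CPM in the epithelium-rich other spots, with 24 UMIs in the member spots of each section. Of 4 counted genes of the calcium list 1 was higher and 1 lower than in the epithelium-rich other spots, beside 1.69% and 4.13% of all genes. The vitamin D target Cyp24a1 had 0 UMIs in the member spots of both sections, where 0 UMIs allow a level of up to 0.724 and 0.635 CPM (3 counts).

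Tgm3 is known from the cornified envelope of skin, where it acts beside small proline-rich proteins and other precursors. Sprr2a3 stood at 2993 and 3188 CPM in the member spots and at 386 and 438 CPM in the Hao2 spots. Sprr1a was at 52.1 and 50.0 CPM against 4.30 and 6.74 CPM. Of 5 counted genes of the cornified list 4 were higher than in the Hao2 spots and 0 lower, beside 7.04% and 11.8% of all genes. Sprr1a held under 100 UMIs in the Hao2 spots, so it could only be called higher. Sprr2 copies are near-identical, so their separate values are uncertain. Csta1, a cystatin-type protease inhibitor, was at 96.3 and 104 CPM against 17.7 and 19.4 CPM. Involucrin (Ivl) and Sprr3 had 0 UMIs in all groups. The squamous markers Krt5, Krt6a, Trp63 and Dsg1a had 0 UMIs in the member spots of both sections, and the whole squamous list of 11 genes summed to 10.1 and 14.6 CPM there and 13.2 and 14.3 CPM in the other spots.

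Interferon-inducible genes were among the highest ratios in all 3 comparisons. Ifit1bl1, of the family of interferon-induced proteins that bind foreign RNA, stood at 1849 and 1754 CPM in the member spots, 413 and 410 CPM in the epithelium-rich other spots, and 107 and 101 CPM in the Hao2 spots. Its log2 ratio to the Hao2 spots was 4.12 in section 1 and 4.13 (4.01 to 4.25) in section 2. By spot it ranged from 198 to 4870 CPM among the members of section 1, with a median of 1768 CPM, and up to 2206 CPM among the Hao2 spots with a median of 60.4 CPM. The ranges overlapped, although the medians were far apart.

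Smaller in count but of similar ratio were Ifit3b, Ifit1bl2, Ubd and Ido1. Ifit3b was at 44.9 and 40.9 CPM in the member spots and 3.44 and 1.73 CPM in the Hao2 spots. Ifit1bl2 was at 22.2 and 23.9 CPM against 1.38 and 1.04 CPM (log2 4.03 and 4.54), with 92 UMIs in the member spots of section 1, under the minimum for the count. Ubd, a ubiquitin-like modifier, was at 90.8 and 105 CPM against 4.47 and 2.07 CPM, and was found in 49.5% and 48.4% of thinned member spots and 1.5% and 2.49% of thinned Hao2 spots. Ido1, which degrades tryptophan, was at 60.8 and 67.1 CPM against 3.09 and 2.77 CPM. These reads were uneven: 25 of 209 member spots held 50% of the Ido1 UMIs in section 1. Ifit3 and Ifit3b, and Ifit1bl1 and Ifit1bl2, are near-identical pairs whose reads may be split between them.

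A list of 33 interferon response genes, put together after these values were seen, summed to 4257 and 4124 CPM in the member spots and to 1172 and 1081 CPM in the Hao2 spots. Of its 24 genes counted there, 15 were higher and 0 lower, beside 7.04% and 11.8% of all genes, with a median log2 ratio of 1.35 and 1.48. The list was chosen from these values, so its counts are a description only. Ubd and Ido1 held under 100 UMIs in the Hao2 spots, so they could only be called higher. Against the epithelium-rich other spots 7 of 28 were higher, beside 1.69% of all genes. Not all interferon genes took part: Stat2 was at 29.2 and 31.1 CPM against 26.8 and 27.3 CPM in the Hao2 spots, and Usp18 at 5.31 and 4.45 CPM against 6.70 and 3.63 CPM. Over the member spots, the interferon list and a list of hypoxia genes had a Spearman correlation of 0.47 and 0.53. Genes of T cells, which can make interferon, summed to 16.9 and 15.03 CPM in the member spots and 12.4 and 10.9 CPM in the Hao2 spots, and their part was not tested.

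The bases upstream of 3 Ifit genes are shown. By the section nearer to 0, these had the highest ratios to the other spots among genes that the naming rule takes in. That rule leaves out the genes that chose the members. Each run is the 250 bases before the start site on the gene's own strand, from RefSeq with build GRCm38.p6. Ifit3b lies on the plus strand at chr19:34607707-34607956, Ifit1bl1 on the minus strand at chr19:34601969-34602218 and Ifit1bl2 on the minus strand at chr19:34640744-34640993. Capitals mark GAAANNGAAA on either strand, the letters of the interferon-stimulated response element, of which Ifit3b and Ifit1bl2 have 2 and Ifit1bl1 has 1. The table holds another start site of Ifit1bl1, with 1 match as well, that is not shown.
Ifit3b: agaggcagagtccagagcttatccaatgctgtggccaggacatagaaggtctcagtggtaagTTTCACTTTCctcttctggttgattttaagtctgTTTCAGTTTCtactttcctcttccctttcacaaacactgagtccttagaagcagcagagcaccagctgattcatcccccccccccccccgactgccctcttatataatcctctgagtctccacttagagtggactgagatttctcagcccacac
Ifit1bl1: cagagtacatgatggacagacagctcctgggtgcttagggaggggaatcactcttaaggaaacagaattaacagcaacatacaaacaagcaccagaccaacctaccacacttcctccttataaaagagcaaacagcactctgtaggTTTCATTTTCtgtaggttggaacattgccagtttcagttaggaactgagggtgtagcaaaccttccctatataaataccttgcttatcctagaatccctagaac
Ifit1bl2: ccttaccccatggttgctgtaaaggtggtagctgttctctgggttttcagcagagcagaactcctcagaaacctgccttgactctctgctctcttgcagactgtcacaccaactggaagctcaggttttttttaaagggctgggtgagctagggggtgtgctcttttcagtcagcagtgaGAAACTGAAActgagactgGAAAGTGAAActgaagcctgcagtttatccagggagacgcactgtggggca
These letters occurred in 978 of 32851 windows of the same length (2.98%). They were in 15 of the 27 interferon list genes that had a window (55.6%), in 9 of 117 genes higher than in the epithelium-rich other spots (7.69%), in 11 of 304 lower genes (3.62%) and in 228 of 7099 genes counted (3.21%). Of Tgm3, Fxyd4 and S100g, 0 of 3 held them. A match describes letters in the window and shows no binding.

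Genes of antimicrobial defence split into a higher and a lower group. Saa1, a serum amyloid, stood at 14572 and 14762 CPM in the member spots and 1661 and 1944 CPM in the Hao2 spots, and Lypd8, which keeps flagellated bacteria from the surface, at 29208 and 29311 CPM against 9974 and 10322 CPM. The oxidase Duox2, its maturation factor Duoxa2 and the nitric oxide synthase Nos2 were between 2.87 and 3.58 log2 units higher in both sections. Some secreted defence proteins were lower in the summed counts. Ang4, an antimicrobial ribonuclease, was at 42.7 and 34.9 CPM in the member spots against 736 and 887 CPM in the Hao2 spots and 1237 and 1057 CPM in the other spots. The goblet cell product Retnlb was at 107 and 100.1 CPM against 971 and 1082 CPM in the Hao2 spots, and the lectin Reg3b at 4.59 and 2.75 CPM against 43.3 and 147 CPM. These lower sums rested on few spots. A median member spot of section 1 held 40.9 CPM of Ang4 and a median Hao2 spot 40.7 CPM, while the highest held 219.9 and 10606 CPM. Retnlb had medians of 91.7 and 134 CPM and highest values of 499.8 and 15302 CPM. Spots very rich in these products were thus missing from the members, while typical spots of both sets held similar Ang4 levels.

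The Ly6 family of membrane-anchored proteins was higher in part. Ly6a stood at 4688 and 4668 CPM in the member spots and 1182 and 1190 CPM in the Hao2 spots, Ly6c1 at 781 and 817 CPM against 96.6 and 87.3 CPM, and Ly6g at 1079 and 1152 CPM against 103 and 97.5 CPM. Ly6e, Ly6c2 and Ly6d were within 2-fold of the Hao2 spots. Ly6g is best known from neutrophils. The neutrophil gene S100a8 had 61 and 23 UMIs in the member spots, of which 36.1% lay in 1 spot in section 1, while Ly6g had 4469 and 5442 UMIs and was found in 100% of thinned member spots. Ly6 genes resemble one another closely, so reads of single members are uncertain.

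Gasdermins of the C group were lower, while gasdermin D was higher. Gsdmc4 stood at 392 and 406 CPM in the member spots and 1195 and 1247 CPM in the Hao2 spots, and Gsdmc2 at 81.4 and 69.0 CPM against 462 and 434 CPM. Gsdmd, the pore-forming protein cleaved by inflammatory caspases, was at 302 and 318 CPM against 105 and 123 CPM. Gsdmc copies are near-identical and were read together as a direction only.

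Hypoxia, glycolysis and antigen presentation were read from lists put together after these values were seen, so their counts are a description only. Egln3, an oxygen-sensing hydroxylase that is itself induced by low oxygen, stood at 241 and 237 CPM in the member spots and 35.2 and 37.7 CPM in the Hao2 spots, and Bnip3 at 104 and 103 CPM against 12.4 and 16.6 CPM. Vegfa was at 68.6 and 70.9 CPM against 14.3 and 18.1 CPM. Of 13 counted hypoxia genes 5 were higher than in the Hao2 spots and 0 lower, beside 7.04% and 11.8% of all genes, and the part of the blood endothelial genes that were higher in the same comparison was not tested. Ndrg1, another hypoxia target, was lower than in the other spots (log2 -1.11 and -1.02). Of 11 glycolysis genes only the hexokinase Hk2 passed the fold, at 335 CPM in both sections against 78.7 and 79.2 CPM. MHC class II genes, which present antigen, summed to 4797 and 5128 CPM against 1904 and 1807 CPM in the Hao2 spots, with 5 of 7 higher, beside 7.04% of all genes. Against the other spots 1 of 7 was higher, beside 3.75% of all genes. Against the epithelium-rich other spots it was also 1 of 7, beside 1.69%. The macrophage list stood at 482 and 483 CPM in the member spots and 616 and 513 CPM in the Hao2 spots, and its part in the class II level was not tested.

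Drug-metabolising enzymes differed gene by gene. The P450 gene Cyp2d12 was at 196 and 185 CPM in the member spots and 19.6 and 17.3 CPM in the Hao2 spots, and its relatives Cyp2d9 and Cyp2d10 were between 2.43 and 3.06 log2 units higher. The carboxylesterase genes Ces2c (820 and 770 CPM against 138 and 148 CPM) and Ces2f (36.2 and 25.6 CPM against 3.61 and 3.28 CPM) were also higher. The sulfotransferase gene Sult1a1 was lower, at 64.7 and 69.9 CPM against 308 and 311 CPM. Of 20 counted genes of the metabolic enzyme list 5 were higher and 6 lower than in the Hao2 spots, beside 7.04% and 11.8% of all genes. Its sum (log2 0.36 and 0.34) and median (-0.02 and -0.06) differed in sign. Cyp2d and Ces2 genes have close copies, so single values are uncertain.

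Some of the genes farthest apart had little in common with the lists. Fabp2, a fatty acid carrier of absorptive cells, stood at 14.2 and 15.9 CPM in the member spots and 168 and 194 CPM in the Hao2 spots. Sptssb, a subunit of the enzyme that starts sphingolipid synthesis, had 5 UMIs and 0 UMIs in the member spots, against 52.1 and 53.0 CPM in the epithelium-rich other spots. The iron reductase gene Steap4 was at 114 and 104 CPM against 13.4 and 11.4 CPM in the Hao2 spots, and Pmaip1, which promotes apoptosis, at 105 and 103 CPM against 13.1 and 12.6 CPM. The stress-induced factor Atf3 was at 187 and 189 CPM against 13.8 and 15.4 CPM. The tight junction gene Cldn4 was at 45.9 and 55.3 CPM against 3.27 and 4.15 CPM. Unlike the others, Cldn4 belongs to the pan-epithelial list, which also defined the epithelium-rich other spots.

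Acta1, the actin of skeletal muscle, was higher in the member spots at 50.9 and 54.8 CPM, against 8.30 and 6.95 CPM in the other spots and 2.75 and 2.77 CPM in the Hao2 spots. The actin gene Acta2 was lower than in the other spots (log2 -2.57 and -2.42). So was the skeletal muscle enzyme Ckm (-1.57 and -3.43), which was looked up after the Acta1 values were seen. The 24 richest of 209 and 28 richest of 218 member spots held 50% of the Acta1 UMIs. Reads of near-identical actin genes may be misassigned, which was not tested.

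**Figure D3:**
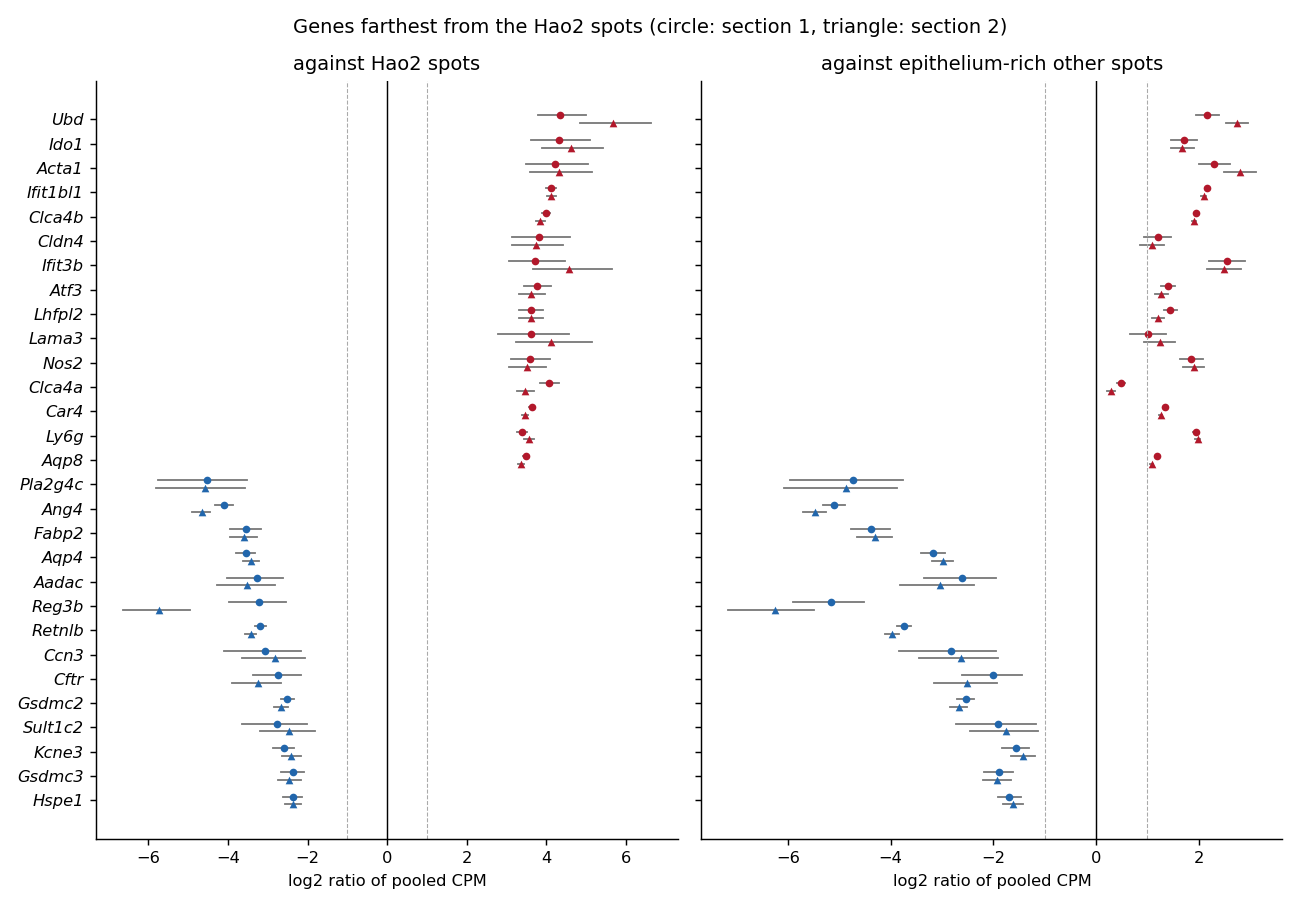
Genes at the high and low ends of the comparison with the Hao2 spots, with the log2 ratio of pooled CPM on the x axis against the Hao2 spots (left) and against the epithelium-rich other spots (right); circles are section 1, triangles section 2, and bars are 95% intervals for counting error. All genes drawn but Clca4a were also past the dashed 2-fold lines against the epithelium-rich other spots in both sections, and the ratios there were mostly nearer to 0 among the higher genes.

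**Figure D4:**
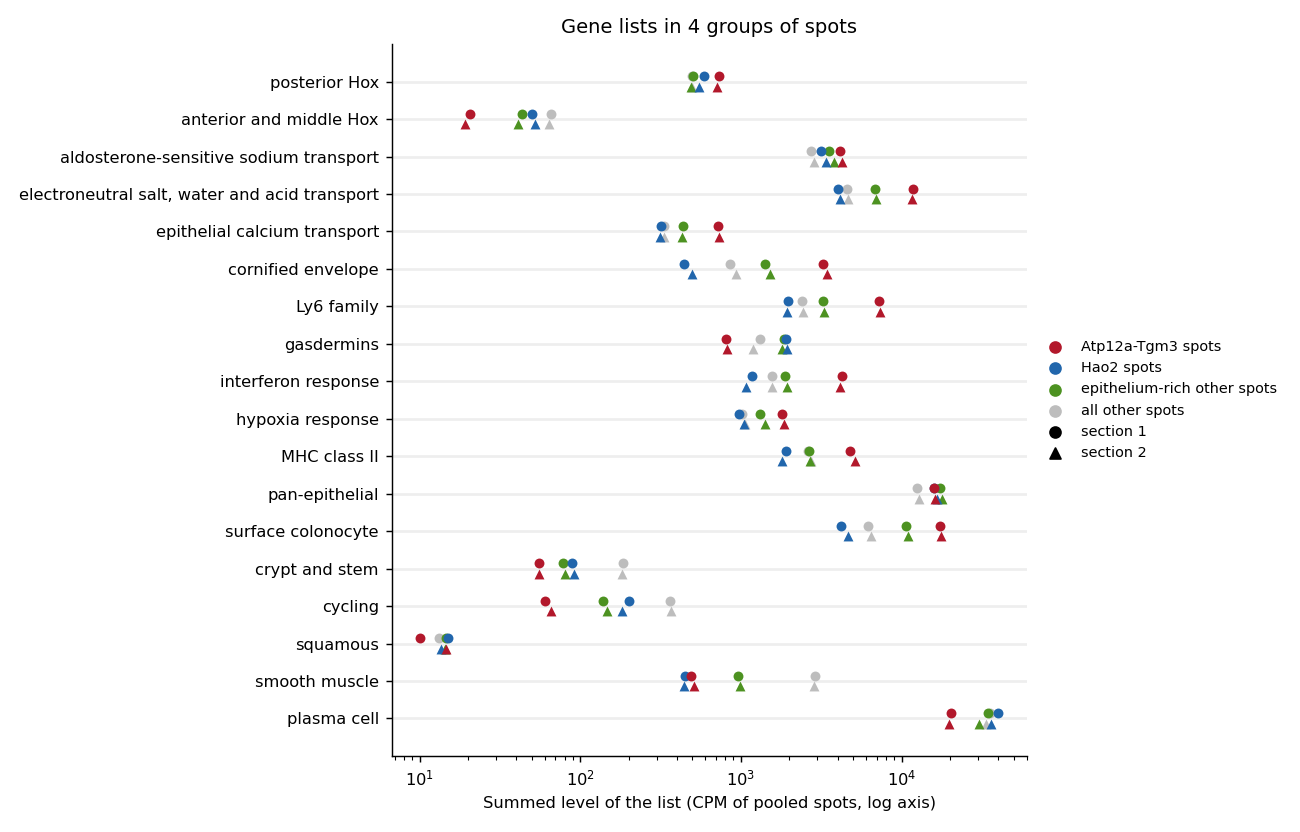
Summed CPM of 18 gene lists (x axis, log scale) in the Atp12a-Tgm3 spots (red), Hao2 spots (blue), epithelium-rich other spots (green) and all other spots (grey), with circles for section 1 and triangles for section 2. The red points are the highest for posterior Hox, transport, cornified envelope, Ly6, interferon, hypoxia, MHC class II and surface colonocyte lists and the lowest for anterior and middle Hox, gasdermins, crypt, cycling and plasma cell lists.

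A droplet single-cell library of large intestine from the same series gave another readout that had no part in choosing the spots. It came from tissue of C57BL/6 and Lgr5-eGFP-ires-CreERT2 mice sorted to enrich stem and lymphatic endothelial cells, so shares in it describe the sort. Of 8646 deposited cells 6188 were kept and 5368 were epithelial, meaning that they held at least 3 UMIs of the pan-epithelial list. An Atp12a UMI was found in 208 epithelial cells, or 3.87% (3.37% to 4.43%), with a median of 28520 UMIs per cell against 24262 in the other epithelial cells. Among 820 non-epithelial cells, with a median of 4206 UMIs, 4 held an Atp12a UMI (0.488%). Of the 208 cells 80 held a single Atp12a UMI. No doublets were removed, and with 1 library no test was possible.

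Atp12a and Tgm3 went together in these cells. Tgm3 stood at 534 CPM in the Atp12a cells and 12.9 CPM in the other epithelial cells, and Fxyd4 at 82.9 CPM against 1.39 CPM. When cells above 10% mitochondrial UMIs were left out, the log2 ratio of Tgm3 was 4.71 in place of 5.37 and that of Fxyd4 3.73 in place of 5.90. In cells with at least 10000 UMIs, thinned to that number, Tgm3 was found in 45.8% of 177 Atp12a cells and 3.15% of 3942 others. Without thinning, the shares over all cells were 49.5% and 5.17%. S100g was less tied to them, at 49.8 CPM against 32.9 CPM, a log2 ratio of 0.60 that was 0.05 when cells above 10% mitochondrial UMIs were left out. The comparison genes did not go the way of the spots: Hao2 was at 216 CPM in the Atp12a cells and 65.5 CPM in the others, Cyp2c68 at 42.2 CPM against 6.66 CPM and Cyp2f2 at 6.12 CPM against 0.754 CPM. In the spots all 3 had log2 ratios below 0 against the other spots, of which only that of Hao2 (-1.22 and -1.34) passed the fold. Over the 10 groups of section 1 by score their sum followed no single direction, with 143 CPM in group 1, 296 CPM in group 7 and 114 CPM in group 10. A few cells carried much of the Hao2 count, since 13 of 208 cells held 50% of it, and its log2 ratio of 1.72 was 0.80 without the cells above 10% mitochondrial UMIs.

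Many of the genes higher in the spots were also higher in these cells. Of the 150 genes higher in the member spots than in the epithelium-rich other spots, 135 had at least 100 UMIs in the cells, and 88 of these (65.2%) were at least 2-fold higher in the Atp12a cells. Over all genes counted in the cells 676 of 13265 (5.10%) were. The summed pan-epithelial list was itself 1.00 log2 units higher in the Atp12a cells, and its part in the 65.2% was not tested. Of the 367 genes lower in the spots, 96 of 366 (26.2%) were at least 2-fold lower in the cells, beside 2608 of 13265 (19.7%) of all genes. For the genes lower against the other spots this share was 40.6%, and for those lower against the Hao2 spots it was 13.9%. Without the cells above 10% mitochondrial UMIs, 43.2% of the higher genes were also higher in the cells. The share of all genes was not taken at that limit.

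Ly6g was at 175 CPM in the Atp12a cells and 1.30 CPM in the others, Clca4b at 203 against 2.99 CPM, Ifit1bl1 at 158 against 3.64 CPM and Trpv6 at 16.5 against 0.267 CPM. Scnn1a was 1.39 and Hoxb13 1.31 log2 units higher. Posterior Hox genes summed to 356 CPM against 161 CPM, and anterior and middle Hox genes to 96.4 against 219 CPM. The Hox lists thus differed in the same directions in cells as in spots. Among the other lists that were higher in the spots, the cornified envelope list was 3.76 log2 units higher in the Atp12a cells. The antimicrobial list was 1.89, the Ly6 family list 1.85, the surface colonocyte list 0.83 and the aldosterone-sensitive sodium transport list 0.75 units higher. The epithelial calcium transport list was at 0.44, the electroneutral transport list at 0.39 and the metabolic enzyme list at -0.03. The interferon list as a whole was 0.64 log2 units higher, with Ubd at 0.91, Ido1 at 0.21 and Cxcl10 at -2.99. The hypoxia list was 0.07 and the MHC class II list 0.05 log2 units higher. The gasdermin list, lower in the spots, was 1.67 higher, and Aqp4 was higher at 217 against 113 CPM. Acta1 was lower (log2 -1.60), with 10 UMIs in the Atp12a cells. The pan-epithelial list stood at 15354 CPM in the Atp12a cells and 7686 CPM in the other epithelial cells, a log2 ratio of 1.00. Its part in the Hox and other ratios given here was not tested. Plasma cell RNA made up 9685 CPM in the Atp12a cells and 26254 CPM in the other epithelial cells, a measure of RNA from other cells, and its part in these ratios was not tested.

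**Figure D5:**
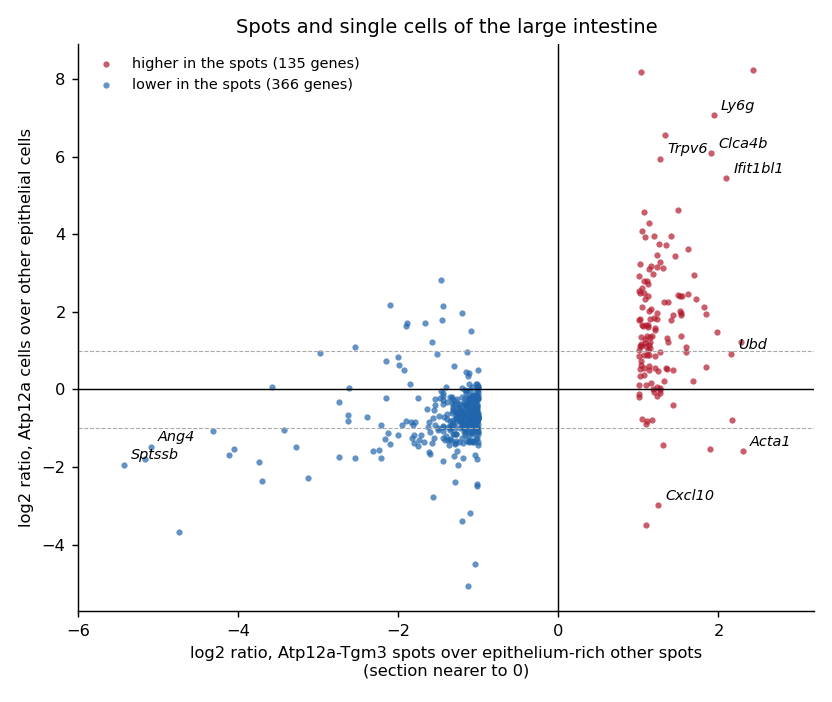
Each point is a gene that was at least 2-fold apart between the Atp12a-Tgm3 spots and the epithelium-rich other spots in both sections; the x axis is that log2 ratio (the section nearer to 0) and the y axis the log2 ratio between Atp12a cells and other epithelial cells of the single-cell library, with dashed lines at 2-fold. Of the 135 genes higher in the spots 88 lie above the upper line, and 5 lie below the lower one, among them Acta1 and Cxcl10.

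The sections shared 1595 barcodes, which in Visium mark fixed positions of a capture area and not the same tissue. Among these positions 127 were member spots in section 1 and 184 in section 2, and 57 in both. Of the 127, 44.9% were thus members in section 2, beside 11.5% of all shared positions. The score had a Spearman correlation of 0.38 over the shared positions. Neighbouring placement of the sections on the slide was not known, and coordinates of the spots were not used here.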

How the data were processed

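The authors deposited UMI counts per gene and barcode, without normalization. Per the file headers they came from Space Ranger 1.2.1 (sections) and Cell Ranger 6.0.1 (cells), and the submitters' processing notes give build mm10. The members and gene lists were chosen with earlier results of these data known, and the interferon, hypoxia, glycolysis and MHC class II lists after the values here were seen. UMIs were summed over the spots of a group and scaled to CPM, and counts under 3 were set to 3 in ratios. The minimum of 100 UMIs per gene was applied to the group with more UMIs. Intervals at 95% were exact Poisson, binomial and conditional binomial ones. Genes named were the 15 highest and 10 lowest log2 ratios against other spots, 10 and 10 against epithelium-rich spots, and 15 and 15 against Hao2 spots, by the section nearer to 0, without the selection and comparison genes and mitochondrial, ribosomal, sex-linked and unnamed genes; list genes served as examples. Some genes that this rule or a list takes in are not reported here. Cells with under 500 genes or over 20% mitochondrial UMIs were left out; no doublet caller was run on cells or spots. The sums and intervals were run on simulated pooled Poisson counts for the comparison with the other spots. Such counts hold no unevenness between spots, so the intervals were not tested against it. Python 3.11.15, numpy 2.4.6, scipy 1.17.1, pandas 2.3.3 and matplotlib 3.10.9 were used. The matrices held 32285 gene IDs, of which 32158 were found in the gene name table.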

Additional observations from a re-analysis of the deposited data

How the results depend on the processing

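No paired analysis was possible because the sections are technical duplicates and the results come from no test. With a 3-fold limit, 131 genes were higher and 1019 lower against the other spots, 23 and 59 against the epithelium-rich other spots, and 190 and 126 against the Hao2 spots. Median-of-ratios scaling gave 1053 and 1248, 248 and 154, and 657 and 361. With no minimum count, 260 were higher and 627 lower against the epithelium-rich other spots and 763 and 1552 against the Hao2 spots; with a minimum of 20 UMIs, 627 and 1350 were lower in these comparisons. Against the epithelium-rich other spots 181 genes were lower for the top 20% of spots and 243 for a score without Atp12a, and with a single section between 634 and 686. Overlap of the sets was 11.1% for the top 20% of spots, where each set held 20% of all spots. Of the higher genes, 43.2% were also higher in cells with at most 10% mitochondrial UMIs. Chosen after seeing the data, other spots with little smooth muscle left 1693 lower genes. The log2 ratios there were 0.53 for smooth muscle, a sign that this choice of spots fixes, 0.28 for enteric neurons and glia, 0.23 for lymphatic endothelium and 0.16 for fibroblasts, all below 0 against all other spots. Hao2 spots kept only where epithelium-rich left 454 lower genes. The named genes, leaving out the genes that chose the spots, kept the sign of their log2 ratios under all alternatives run. Depth limits genes under about 100 UMIs in a group, as in the anterior Hox list, where single genes had between 0 and 43 UMIs in section 1. The sections cannot show how animals differ.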
